A study of Homo sapiens with 4 samples.

Results

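Of the 65118 H3K27ac peaks called in K562 cells treated with daunorubicin, 3690 (5.67%) were weak peaks at gene ends that overlapped no peak of the untreated cells. The peaks were chosen by 3 measured properties: a score below 100, not even 1 bp shared with any of the 38626 untreated peaks, and a start or end of any annotated gene no more than 1 kb away. The score is the single value deposited for each peak. How it was calculated is unknown, so it is used only to rank peaks within a list. These daunorubicin-only gene-end peaks made up 19.99% of the 18456 daunorubicin peaks at gene ends and 12.3% of the 29888 daunorubicin-only peaks below the same score. Both H3K27ac lists together held 103744 peaks.

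K562 is a cell line grown from a chronic myeloid leukaemia in blast crisis. One culture received 1 uM daunorubicin for 18 h and the other received none. Each of these 2 conditions had 1 ChIP-seq library for H3K27ac and 1 input library without antibody, so no difference between conditions has a replicate check and no test between them was made. Intervals in parentheses are 95% Wilson intervals of a share and cover counting error only. A missing untreated peak means that none was called there, and the depth of the libraries is unknown.

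H3K27ac is the acetylation of lysine 27 of histone H3. It sits on the nucleosomes flanking active promoters and on active enhancers, and at a working promoter the start itself is usually depleted of nucleosomes. Daunorubicin is an anthracycline that intercalates into DNA, traps topoisomerase II on it and can evict histones. Many promoters of widely expressed genes are rich in CpG dinucleotides, whereas promoters of tissue-restricted genes are more often poor in them.

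As a check of cell identity, untreated peaks at the ends of marker genes were counted. Of 14 erythroid markers 10 had one, among them TAL1, GATA1, KLF1 and HBZ, while HBG2, HBE1, HBA1 and HBA2 had none. One was also found at 1 of 4 megakaryocyte markers. Of 11 markers of other cell types 5 had one: EPCAM, APOA1, CD3E, KRT18 and CD79A. Among all protein-coding genes the share was 58.4%, so these counts do not establish the identity of the cells. Input lists held 87 peaks with drug and 92 without. None of the 3690 peaks overlapped an input peak, and a count of 0 allows a share of up to 0.0813%, taking 3 counts of the total as the limit. The same share was not computed for all 65118 daunorubicin peaks. With input lists this short, the count says little about these peaks.

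The rule left peaks of a wide range of scores. Their median score was 27 (quartiles 20 and 39, range 10 to 99) and their median width 440 bp (quartiles 292 and 707, range 208 to 2781). The 14720 daunorubicin gene-end peaks shared with an untreated peak, with no score ceiling, had a median score of 120 and a median width of 1277 bp. For the 5989 of them scoring below 100 the medians were 58 and 925 bp. Under the mirrored rule, 557 untreated peaks below 100 had no daunorubicin overlap, with a median score of 23 in their own list and a median width of 359 bp. The peaks were chosen by their score and by the missing overlap, so these values are a description and were not tested. The 5 strongest peaks inside the ceiling scored 99, 99, 99, 99 and 98, and the 5 weakest otherwise alike but outside it scored 100, 102, 102, 103 and 104. In all 46 peaks met the rule except for the ceiling.

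The strongest protein-coding starts that had a daunorubicin-only peak and no untreated peak at either end of the gene belonged to genes of quite different roles. Their upstream sequences are shown first because they differ in base composition in the way that the promoters do as a group. Each run is the 250 bases before the start in the strand of the gene, from the RefSeq promoter table on GRCh38.p14, with every CG in capitals.
DSEL: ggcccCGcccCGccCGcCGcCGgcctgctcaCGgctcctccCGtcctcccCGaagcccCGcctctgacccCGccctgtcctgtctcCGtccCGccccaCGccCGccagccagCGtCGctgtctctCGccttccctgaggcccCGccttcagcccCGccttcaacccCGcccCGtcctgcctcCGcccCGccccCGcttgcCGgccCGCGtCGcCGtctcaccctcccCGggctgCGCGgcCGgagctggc
SLCO3A1: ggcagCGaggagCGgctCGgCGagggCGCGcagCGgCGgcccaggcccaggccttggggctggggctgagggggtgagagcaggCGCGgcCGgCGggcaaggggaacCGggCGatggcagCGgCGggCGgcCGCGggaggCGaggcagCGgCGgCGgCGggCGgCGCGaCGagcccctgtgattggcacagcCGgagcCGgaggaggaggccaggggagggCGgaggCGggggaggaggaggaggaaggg
SULT2A1: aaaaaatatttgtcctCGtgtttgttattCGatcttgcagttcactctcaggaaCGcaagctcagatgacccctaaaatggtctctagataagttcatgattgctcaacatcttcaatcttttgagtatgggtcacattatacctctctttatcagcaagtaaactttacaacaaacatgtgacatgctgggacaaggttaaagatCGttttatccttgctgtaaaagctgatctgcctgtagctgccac
TNFRSF9: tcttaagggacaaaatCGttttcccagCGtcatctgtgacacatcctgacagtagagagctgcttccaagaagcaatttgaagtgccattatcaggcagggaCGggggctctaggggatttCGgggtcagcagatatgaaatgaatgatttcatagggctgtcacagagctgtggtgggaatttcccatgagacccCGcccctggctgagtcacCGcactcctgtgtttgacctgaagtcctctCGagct
KSR2: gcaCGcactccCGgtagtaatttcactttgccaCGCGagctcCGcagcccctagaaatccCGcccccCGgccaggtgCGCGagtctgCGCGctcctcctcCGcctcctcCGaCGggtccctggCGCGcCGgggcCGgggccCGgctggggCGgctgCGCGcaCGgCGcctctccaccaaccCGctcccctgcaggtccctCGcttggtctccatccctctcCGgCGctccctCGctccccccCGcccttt
PGC: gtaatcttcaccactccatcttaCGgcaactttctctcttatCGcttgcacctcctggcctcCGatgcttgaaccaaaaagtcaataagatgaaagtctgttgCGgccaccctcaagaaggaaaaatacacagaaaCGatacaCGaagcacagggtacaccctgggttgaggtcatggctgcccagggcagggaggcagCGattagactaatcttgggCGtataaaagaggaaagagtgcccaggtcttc

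DSEL (chr18:67516721-67516970, minus strand), an epimerase of dermatan sulfate synthesis, held 33 CG in this window. SLCO3A1 (chr15:91853458-91853707, plus strand), an organic anion transporter, held 32. KSR2 (chr12:117968991-117969240, minus strand), a scaffold of the Ras-MAPK cascade, held 30. The windows of the others were poor in CG. SULT2A1 (chr19:47886316-47886565, minus strand), a sulfotransferase of steroids and bile acids, held 4. TNFRSF9 (chr1:7940840-7941089, minus strand), the lymphocyte receptor 4-1BB, held 7. PGC (chr6:41747398-41747647, minus strand), the precursor of the stomach protease gastricsin, held 8.

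The peak at DSEL (chr18:67516156-67516750) scored 96 and covered the start, and the nearest untreated peak was 97191 bp away. At SLCO3A1 the peak (chr15:91852571-91853861) scored 93, covered the start and lay 351799 bp from an untreated peak. The SULT2A1 peak (chr19:47885790-47886669) scored 88 and lay only 4450 bp from one. The TNFRSF9 peak (chr1:7940576-7941955) scored 87, with a gap of 11548 bp. The KSR2 peak scored 83 and the PGC peak 82, with gaps of 47172 and 11372 bp. All 6 peaks covered the annotated start, so the acetylated stretch called in treated cells ran across it.

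The next 9 such starts scored between 74 and 82. They were RASSF6, a Ras-association domain protein, SERPINB8, a serine protease inhibitor, SLC36A4, an amino acid transporter, ADAM22, a neuronal membrane protein, TRIM2, a ubiquitin ligase, AMOT, an angiomotin of the Hippo pathway, ODAPH, a protein of enamel formation, PGCKA1 and GLS2, a glutaminase. Peaks at TRIM2 and AMOT did not cover the start: their centres lay 1214.5 bp inside and 426 bp before it. The peak at SERPINB8 also lay at the 3′ end of HMSD, so it cannot be assigned to 1 of these genes.

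The 15 highest-scoring peaks of all were of mixed kinds. The peak at CLSPN, the checkpoint mediator claspin, scored 99 and was centred 936.5 bp upstream of the start. This start already had an untreated peak, of score 417 in its own list, across a gap of 463 bp. Scores of the 2 lists are not compared. The peak at TFAP4, a helix-loop-helix factor, also scored 99 and lay 220 bp from an untreated peak. The peak at DENR, a translation factor, scored 95 and lay 197 bp from one. By contrast, the peak at the 3′ end of DHRS9, a retinol dehydrogenase, scored 98 and lay 17133 bp from the nearest untreated peak. That at OASL, an interferon-induced gene, scored 95 with a gap of 20955 bp. Of the remaining peaks, 6 were at lncRNA genes, among them LOC124903047, whose start was covered by a peak of score 99 lying 794960 bp from an untreated peak.

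Daunorubicin-only gene-end peaks were found at starts less often than shared ones. In all 1386 (37.6%, 36 to 39.1) lay within 1 kb of a 5′ start and 845 (22.9%, 21.6 to 24.3) near a 3′ end only. For the other 1459 (39.5%) the table gives no strand for any gene at the peak. Of those with a known strand 62.1% (60.1 to 64.1) were at a start. The share was 92.2% (91.7 to 92.7) for shared gene-end peaks and 85.1% (84.0 to 86.2) for shared ones scoring below 100. For the untreated-only peaks of the mirrored rule it was 54.1% (48.8 to 59.4). Protein-coding gene ends received 46.9% of the daunorubicin-only peaks, against 79.4% of the shared ones of any score and 53.9% of the untreated-only ones. A further 33.9% lay at lncRNA genes without a protein-coding end in reach.

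**Figure D1:**
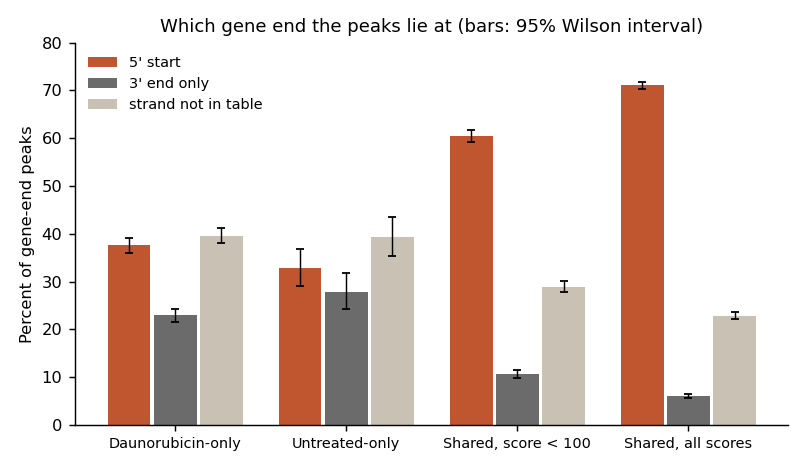
Percent of gene-end peaks (y axis) at a 5′ start, at a 3′ end only or at genes with no strand in the table, for 4 sets of peaks, with 95% Wilson intervals as error bars. Starts hold 37.6% of the daunorubicin-only and 71.1% of all shared gene-end peaks, and 3′ ends 22.9% and 6.03%.

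Where a start already had an untreated peak, the daunorubicin-only peak mostly lay beside the start, and where it had none, the peak lay on the start more often. Of the 1386 peaks at starts, 352 (25.4%) were at a start with an untreated peak. Only 7.67% (5.32 to 10.9) of these covered the start, 11.1% (8.21 to 14.8) were centred within 250 bp of it, and 60.8% (55.6 to 65.8) were centred upstream. The fullest 100 bp bin ran from 500 to 400 bp upstream. Of the 1034 at starts with no untreated peak, 36.4% (33.5 to 39.3) covered the start and 40.5% (37.6 to 43.5) were centred within 250 bp, with 40.9% upstream. The rule itself keeps peaks off untreated ones, which removes the centre of a marked start, so this contrast is in part set by the choice of peaks. At 3′ ends the peaks were spread evenly: 20.4% covered the end, 18.7% were centred within 250 bp and 49.7% lay upstream of it.

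**Figure D2:**
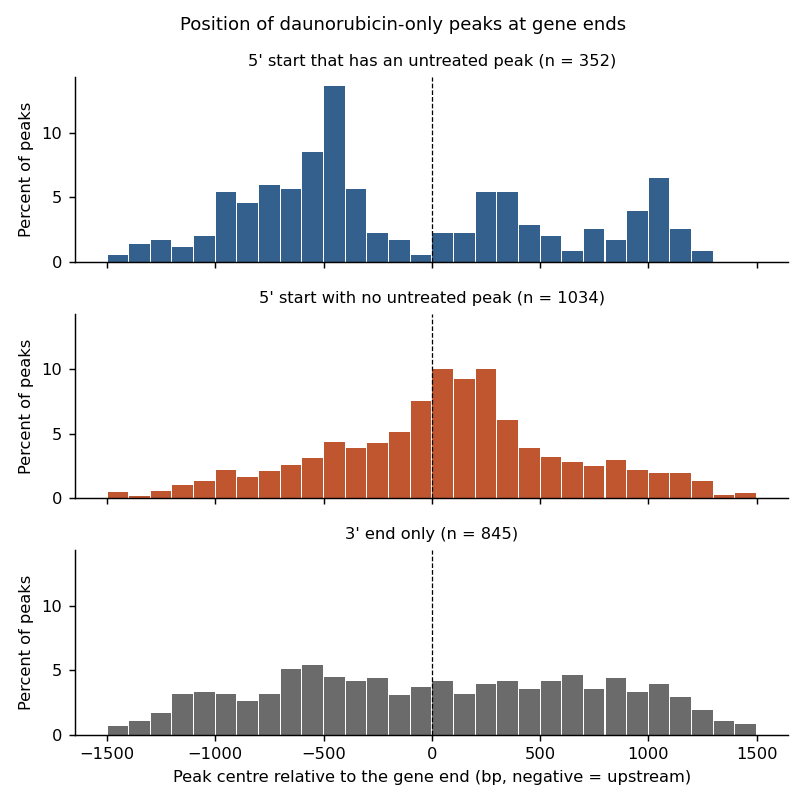
Percent of peaks (y axis) by distance of the peak centre from the gene end in bp (x axis, 100 bp bins, negative is upstream, centres beyond the axis not drawn). The top panel shows 352 peaks at starts with an untreated peak, highest 500 to 400 bp upstream, the middle panel 1034 at starts without one, highest just downstream of the start, and the bottom panel 845 at 3′ ends only, nearly level.

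Examples of such flanks were chosen after their values were seen. The peak 587 bp upstream of ADAM10, a membrane sheddase, scored 86 and lay 209 bp from an untreated peak (score 354 in its own list). The peak 671.5 bp upstream of NQO2, a quinone reductase, scored 77 with a gap of 222 bp. At EGLN3, an oxygen-sensing hydroxylase, the peak scored 75 with a gap of 89 bp. At GDF15, a stress-induced cytokine, it was centred 426 bp upstream and scored 70. The gap to an untreated peak, of score 113 in its own list, was 231 bp. At TNFAIP3, the NF-kB inhibitor A20, the peak lay on the other side, 315.5 bp downstream of the start, and scored 83. One peak of score 62 was shared by BAG1 and CHMP5, which are transcribed away from each other: its centre lay 600.5 bp upstream of the first start and 259.5 bp downstream of the second.

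In all 693 of these peaks lay within 1 kb of an untreated peak, and for 610 (88.0%) that untreated peak was overlapped by another daunorubicin peak. The overlapping daunorubicin peak, the widest where there were several, was narrower than the untreated one in 49.2% (45.2 to 53.1). This was so for 39.3% (38.5 to 40.1) of all 13732 shared untreated peaks at gene ends. The 610 were chosen for a separate daunorubicin peak close by, which limits how far the overlapping one can reach. This contrast is therefore in part set by the choice of peaks. Over these 610 the median width was 963.5 bp for the untreated peak and 947 bp for the daunorubicin peak on it, against 1277 and 1338.5 bp over all 13732. A wide acetylated stretch called as 1 peak in one library and as several in the other cannot be told apart from an added peak in these lists.

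The daunorubicin-only gene-end peaks lay at widely varying distances from the untreated peaks. The median gap was 9619 bp, 25.1% (23.7 to 26.5) had one within 2.5 kb, 51.0% within 10 kb, and 17.0% (15.8 to 18.3) none within 50 kb. Untreated-only gene-end peaks were closer to the daunorubicin list, which is also the longer one: their median gap was 3425 bp, 44.0% (39.9 to 48.1) had a peak within 2.5 kb and 4.49% had none within 50 kb. Peaks at starts fell to both extremes, 30.7% having an untreated peak within 2.5 kb and 22.9% (20.8 to 25.2) none within 50 kb. At 3′ ends these shares were 19.8% and 9.23% (7.46 to 11.4). Another daunorubicin-only peak stood within 10 kb of 42.7%.

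**Figure D3:**
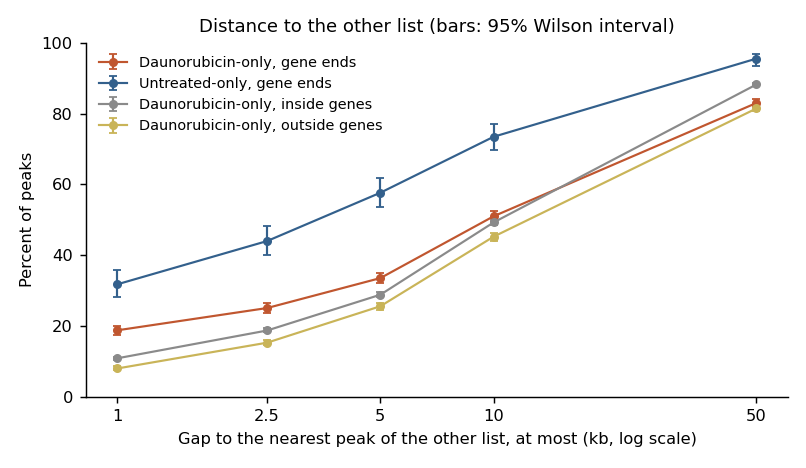
Percent of peaks (y axis) whose nearest peak of the other list lies within the distance on the x axis (kb, log scale), with 95% Wilson intervals. Untreated-only gene-end peaks run highest, with 44.0% within 2.5 kb, against 25.1% of the daunorubicin-only gene-end peaks, 18.7% of those inside genes and 15.3% of those outside genes.

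The 10 protein-coding starts farthest from an untreated peak had scores from 18 to 82, and over all 628 peaks more than 50 kb from one the median score was 28. At MDFIC, an inhibitor of MyoD-family factors, the gap was 1178857 bp and the score 18. At AMOT it was 1149445 bp with a score of 77, and at TSHZ3, a zinc finger homeobox factor, 994210 bp with a score of 53. The other 7 lay between 546741 and 827905 bp: EPHA6, an ephrin receptor, GNAI1, a G protein subunit, CACNA2D1, a calcium channel subunit, MB21D2, ARHGAP32, SERPINB8 and CASP4, an inflammatory caspase. The 6 of these other than SERPINB8 scored from 18 to 48, and SERPINB8 scored 82.

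The widest peaks were mostly not at protein-coding starts. A peak of 2781 bp covered the 3′ end of LOC105372988, and one of 2719 bp covered the pseudogene PSME2P4. WNT9A, a Wnt ligand, had a peak of 2051 bp over its start that scored 47 and lay 97982 bp from an untreated peak. SP8, a limb and brain transcription factor, had one of 2195 bp that scored 26. The peak of 2045 bp at PIK3R1, the regulatory subunit of PI3 kinase, lay beyond its 3′ end.

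Most genes had a single such peak: 3643 genes had 1, 288 had 2, 12 had 3 and 1 had 4. The gene with 4 was FLVCR2, a haem and choline transporter family member, with peaks of score 54 and 37 at its start and 47 and 30 at its 3′ end, and no untreated peak at either. JCHAIN, the joining chain of secreted antibodies, had a peak of score 50 over its start and 2 of 30 and 28 at its 3′ end. Its nearest untreated peak was 20852 bp from the start peak. ADGB, PCSK5, a proprotein convertase, CYP4F22, a fatty acid hydroxylase, and RBP7, a retinol-binding protein, had 3 each with none untreated at either end. PPAN, a ribosome biogenesis factor, had 3 beside untreated peaks. Of the non-coding ones, LINC02826 had 3 peaks of score 26 to 28 around its start, at least 786822 bp from any untreated peak.

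Of 20050 protein-coding genes, 1756 (8.76%) had a daunorubicin-only peak at an end, and 908 (4.53%) had one and no untreated peak at either end. Those 908 were 51.7% (49.4 to 54.0) of the 1756. Among all 20050 genes 58.4% had an untreated peak at an end and the rest had none. Under the mirrored rule 329 genes (1.64%) had an untreated-only peak, and 38.6% (33.5 to 44.0) of these had no daunorubicin peak at either end. Of the 15842 genes of known strand, 891 (5.62%) had a daunorubicin-only peak at the start, 596 of them (3.76%) with no untreated peak there, and 545 (3.44%) had one at the 3′ end. Of those 545, 67.5% (63.5 to 71.3) had an untreated peak at their own start, against 59.0% (58.2 to 59.7) of all genes of known strand and 75.8% (73.3 to 78.2) of the 1159 genes with a shared peak at the 3′ end. Of 18303 lncRNA genes 1409 (7.7%) had one, and 1005 (5.49%) had one and no untreated peak at either end. These shares were 7.74% and 4.52% for tRNA genes and 3.61% and 2.88% for miRNA genes. For pseudogenes they were 3.38% and 3.04%. An untreated peak stood at an end of 22.8% of all lncRNA, 61.9% of tRNA and 14.6% of miRNA genes, and of 4.06% of pseudogenes. Among chromosomes the share of gene-end peaks that were daunorubicin-only ran from 15.2% (13.3 to 17.3) on chromosome 19 to 22.7% (19.7 to 26.0) on chromosome 4.

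Promoter composition differed between starts with and without an untreated peak. A promoter was called CpG-rich when at least 50% of the 300 bases around the start (250 before, 50 after) were G or C and the observed over expected CpG ratio was at least 0.6. Of all starts with a daunorubicin-only peak and no untreated peak, 41.8% (38.8 to 44.9, n = 1011) were CpG-rich. For protein-coding genes the share was 56.9% (52.7 to 61.0), which lay between 29.7% (28.4 to 30.9) at starts without a peak in either list and 85.3% (84.6 to 86.1) at starts with an untreated and no daunorubicin-only peak. For lncRNA genes it was 24.8% (21.2 to 28.9), between 9.71% and 69.1%. Starts with both kinds of peak were CpG-rich in 77.2% (71.9 to 81.8) of protein-coding genes.

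The same 300 bases were searched on both strands for 9 short words: the TATA box (TATAAA), the AP-1 word (TGACTCA), the CRE (TGACGTCA), the GATA word (GATAA), the E-box (CACGTG), the ETS word (CCGGAAG), the GC box (GGGCGG), the NRF1 palindrome and the CCAAT box (GCCAAT). They were compared over 4 classes of start and 2 gene classes with no test. A match is only a match of letters. TGACTCA, the word of AP-1 (FOS and JUN dimers), was in 12% (9.38 to 15.2, n = 475) of lncRNA promoters with a daunorubicin-only and no untreated peak. It was in 4.94% (4.17 to 5.84) of those with an untreated and no daunorubicin-only peak, 6.84% (6.30 to 7.41) of those with no peak and 6.6% of all lncRNA promoters. Base composition moves with this: among promoters that were not CpG-rich the shares were 15.1% (11.8 to 19.2), 11.5% (9.45 to 13.9) and 7.38% (6.79 to 8), so the intervals of the first and second overlap there. Among CpG-rich lncRNA promoters they were 2.54% (0.868 to 7.21, 3 of 118), 2.01% and 1.81%, all within the first interval. At protein-coding starts with a daunorubicin-only and no untreated peak it was in 4.85% (3.33 to 7.01). It was in 2.54% (2.22 to 2.89) of those with an untreated and no daunorubicin-only peak, 5.24% (4.67 to 5.89) of those with no peak and 3.6% of all. Shares by CpG richness were not computed for these.

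The 4 lncRNA promoters below were chosen after their values had been seen, and show where the word lies. Each run is the 250 bases before the start, with TGACTCA or its reverse complement in capitals.
LOC105372212: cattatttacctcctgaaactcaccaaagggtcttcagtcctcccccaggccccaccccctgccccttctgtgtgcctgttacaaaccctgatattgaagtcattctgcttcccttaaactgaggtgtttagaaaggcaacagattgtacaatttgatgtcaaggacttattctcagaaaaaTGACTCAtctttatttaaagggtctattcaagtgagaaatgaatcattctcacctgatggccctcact
LOC105373907: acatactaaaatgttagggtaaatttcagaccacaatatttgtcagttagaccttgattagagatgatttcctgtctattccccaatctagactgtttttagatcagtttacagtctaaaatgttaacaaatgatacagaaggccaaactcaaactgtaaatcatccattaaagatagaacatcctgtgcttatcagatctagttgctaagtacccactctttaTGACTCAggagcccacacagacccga
ZNF222-DT: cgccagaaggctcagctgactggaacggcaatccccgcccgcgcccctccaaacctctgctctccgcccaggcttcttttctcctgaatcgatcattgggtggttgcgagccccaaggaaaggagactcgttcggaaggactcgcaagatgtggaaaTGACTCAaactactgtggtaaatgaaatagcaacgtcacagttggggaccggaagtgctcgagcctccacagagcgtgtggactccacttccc
LOC112268088: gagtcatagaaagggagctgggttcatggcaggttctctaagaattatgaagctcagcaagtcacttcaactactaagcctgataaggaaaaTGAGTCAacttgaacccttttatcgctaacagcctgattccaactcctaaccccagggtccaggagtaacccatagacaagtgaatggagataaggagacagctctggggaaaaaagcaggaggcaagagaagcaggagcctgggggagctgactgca

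LOC105372212 (chr18:76687424-76687673, minus strand) had a peak of score 85 over its start, 123195 bp from an untreated peak. LOC105373907 (chr2:223488818-223489067, plus strand) had one of score 75, with a gap of 151196 bp. ZNF222-DT (chr19:44025283-44025532, minus strand) is the divergent partner of ZNF222, a zinc finger gene whose start was covered by a peak of score 66. LOC112268088 lies at chr12:6345554-6345803 on the plus strand. Of these 4, ZNF222-DT alone was CpG-rich.

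GCCAAT, the CCAAT-box word bound by NF-Y, was more frequent at protein-coding starts where a daunorubicin-only peak lay beside an untreated one. It was in 32.7% (27.4 to 38.5, n = 272) of these, against 20.3% (19.5 to 21.2) of starts with an untreated and no daunorubicin-only peak, 14.7% (12 to 18) of those with a daunorubicin-only and no untreated peak, and 18.0% of all. Among CpG-rich promoters alone the first 2 shares were 37.6% (31.3 to 44.3) and 20.9% (19.97 to 21.8). Among promoters that were not CpG-rich they were 16.1% (9 to 27.2, 10 of 62) and 17.0% (15.1 to 19.2), and among lncRNA promoters of any composition 14.7% (9.24 to 22.5) and 15.5% (14.2 to 17.0), so the higher share was seen in CpG-rich protein-coding promoters only, of the groups compared. The ETS word CCGGAAG was in 15.8% (11.95 to 20.6) of protein-coding starts with both kinds of peak, 21.8% (21.0 to 22.7) of those with an untreated and no daunorubicin-only peak, and 5.60% (3.95 to 7.88) of those with a daunorubicin-only and no untreated peak. These classes also differ in CpG richness (77.2%, 85.3% and 56.9%), whose part in this was not tested. A start of the opposite strand within 1 kb upstream, as at divergent promoters, was found at 22.4% (18.0 to 27.5) of starts with both kinds of peak. The share was 25.9% for starts with an untreated and no daunorubicin-only peak, many of which also had a shared daunorubicin peak. For starts with a daunorubicin-only and no untreated peak it was 9.56% (7.46 to 12.2). At starts with no peak in either list it was 4.93%, and over all protein-coding starts 17.4%.

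The 3 promoters below are of this kind, were chosen after their values had been seen, and hold the word in capitals, on either strand.
CYTH2: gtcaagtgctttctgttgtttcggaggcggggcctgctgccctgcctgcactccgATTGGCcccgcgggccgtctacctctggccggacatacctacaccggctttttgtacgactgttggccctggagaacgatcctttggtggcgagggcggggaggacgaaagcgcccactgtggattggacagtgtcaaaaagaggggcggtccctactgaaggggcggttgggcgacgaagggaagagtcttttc
LGR4: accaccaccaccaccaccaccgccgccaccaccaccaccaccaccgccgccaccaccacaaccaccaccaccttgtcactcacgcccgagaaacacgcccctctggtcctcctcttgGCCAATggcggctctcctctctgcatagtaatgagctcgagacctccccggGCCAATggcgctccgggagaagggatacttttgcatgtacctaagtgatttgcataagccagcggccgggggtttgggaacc
FOXO1: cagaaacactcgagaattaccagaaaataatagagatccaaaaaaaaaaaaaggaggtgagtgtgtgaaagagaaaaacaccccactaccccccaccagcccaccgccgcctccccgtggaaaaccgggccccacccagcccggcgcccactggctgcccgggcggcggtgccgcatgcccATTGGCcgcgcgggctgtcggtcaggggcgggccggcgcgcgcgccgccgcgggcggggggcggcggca

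CYTH2 (chr19:48469119-48469368, plus strand), an exchange factor for ARF GTPases, had a peak of score 79 centred 725 bp upstream. It lay 333 bp from an untreated peak (score 430 in its own list). LGR4 (chr11:27472791-27473040, minus strand), a receptor for R-spondins, had one of score 68 centred 537.5 bp upstream, and its window holds the word 2 times. FOXO1 (chr13:40666642-40666891, minus strand), a forkhead factor, had one of score 64 centred 475 bp upstream. In each case the daunorubicin-only peak lay upstream of the untreated peak at the start.

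**Figure D4:**
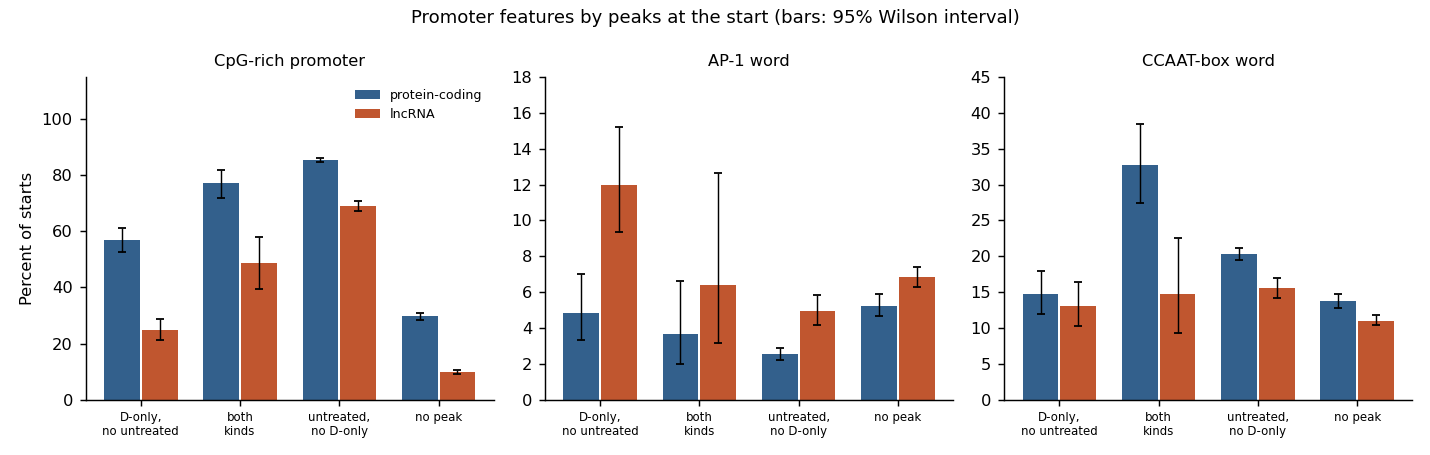
Percent of starts (y axis, a different scale in each panel) with a CpG-rich promoter, the AP-1 word or the CCAAT-box word, by which peaks lie at the start (x axis, D-only for daunorubicin-only), for protein-coding and lncRNA genes, with 95% Wilson intervals. Daunorubicin-only peaks without an untreated one stand between the other classes for CpG (56.9% and 24.8%), the AP-1 word is highest at their lncRNA starts (12%), and the CCAAT-box word at protein-coding starts with both peaks (32.7%).

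Gene lists were read against the 8.76% of all protein-coding genes. Of the 29 lists, the interval lay wholly above it for 3 and wholly below it for 2, and with 29 lists compared and no test nothing is called particular to any of them. The AP-1 and immediate early list, genes induced within minutes of a stimulus, had 8 of 32 genes with a daunorubicin-only peak (25%, 13.3 to 42.1). These were FOSB, MAFF, DUSP5, JUNB, DUSP2, KLF6, IER2 and KLF2. An untreated peak already stood at an end of 7 of the 8, as at 27 of all 32 genes of the list (84.4%), the exception being DUSP2, a MAP kinase phosphatase. When the longer list was reduced to the length of the other, 3 of 32 had one (9.38%, 3.24 to 24.2) against a background of 3.14%. FOSB, an AP-1 subunit, had a peak of score 61 centred 370 bp upstream of its start, and MAFF, a small MAF factor, one of score 48 centred 448.5 bp upstream. At JUNB, IER2, KLF2 and KLF6 the peaks lay at the 3′ end and scored 31, 19, 19 and 21.

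The retinoid list had 7 of 28 genes (25%, 12.7 to 43.4), 5 of them with no untreated peak at either end. Of the whole list 12 of 28 (42.9%) had an untreated peak at an end, so most of its genes had none anyway. DHRS9 had a peak of score 98 at its 3′ end and a second of score 18 over its start. RBP7 had peaks of score 19 over its start and 21 and 15 at its 3′ end. BCO1 and BCO2, the carotenoid oxygenases, had peaks of score 20 and 17 at their starts, and RDH12, a retinal reductase, one of score 22. CYP26A1, which degrades retinoic acid, had one of score 27 at its 3′ end. Apart from the DHRS9 peak these scores were at or below the median of 27. With lists of equal length 1 of 28 was left (3.57%, 0.633 to 17.7), against a background of 3.14%. Of the aldehyde dehydrogenase family 3 of 19 had one (15.8%, 5.52 to 37.6): ALDH3A2 with a score of 53 over its start, 268403 bp from an untreated peak, ALDH1L1 with 2 peaks of 22 and 17, and ALDH1A1 with 20.

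Ion channel genes had such a peak in 27 of 201 (13.4%, 9.40 to 18.8), and 23 of the 27 had no untreated peak at either end. Of the whole list 22.9% had an untreated peak at an end. At or above 41, the median score of all daunorubicin peaks, 4 of 201 were left (1.99%), against a background of 2.01%. CACNA2D1 had one of score 35. The interval lay below the background for zinc finger genes (28 of 509, 5.50%, 3.83 to 7.84) and olfactory receptors (10 of 390, 2.56%, 1.40 to 4.65).

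Lists of known drug responses lay on either side of the 8.76%, with intervals that included it. Of 30 p53 targets 3 had such a peak (10%, 3.46 to 25.6): GADD45A, a stress sensor, with scores of 50 and 36 at its 2 ends, POLK with 35 and TIGAR with 29. All 3 already had an untreated peak at an end, as had 22 of all 30 (73.3%). K562 cells are p53-deficient, and these counts are no measure of a p53 response. Of 64 DNA damage and repair genes 2 had one (3.13%, 0.861 to 10.7), BARD1 and FANCE. Of 9 topoisomerase genes 0 had one, which says little at this number. Of 34 drug transport and anthracycline metabolism genes 1 had one, ABCG2, a drug efflux pump, with a score of 23 and a gap of 40037 bp. Among NRF2 and antioxidant genes there were 2 of 42, GPX8 and SESN3, and among BCL2 family and death receptor genes 5 of 41 (12.2%, 5.32 to 25.5), which were BMF, APAF1, CASP9, CASP2 and BCL2L11. Of NF-kB and chemokine genes 5 of 37 had one (13.5%, 5.91 to 28.0), led by TNFAIP3 (83), CHUK (57), IL1A (36) and TRAF2 (21).

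Of the blood lineage lists, 7 of 67 erythroid and haem genes had one (10.4%, 5.15 to 20.03). TAL1 had a peak of score 58 beside its marked start and RHD, the Rh blood group antigen, 2 peaks of 23 and 18 at an unmarked one. HBG1 and HBG2 are near-identical copies, so their peaks are uncertain. ITGA2B, the platelet integrin, had a peak of score 71 centred 523 bp upstream of a start without an untreated peak, 2593 bp from the nearest one. GP1BA was the other of 2 among 25 megakaryocyte genes (8%, 2.22 to 24.97). With gene ends within 2.5 kb it was 10 of 25 (40%, 23.4 to 59.3), against a background of 16.1%. Within 500 bp it was 1 of 25 (4%), against 6.28%, and with lists of equal length 1 of 25 (4%), against 3.14%. Of cytosolic ribosomal protein genes 10 of 88 had one (11.4%, 6.29 to 19.7), all with an untreated peak at an end, as had 94.3% of the list. With no untreated peak allowed within 1 kb, 1 of 88 was left (1.14%), against a background of 6.53%.

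**Figure D5:**
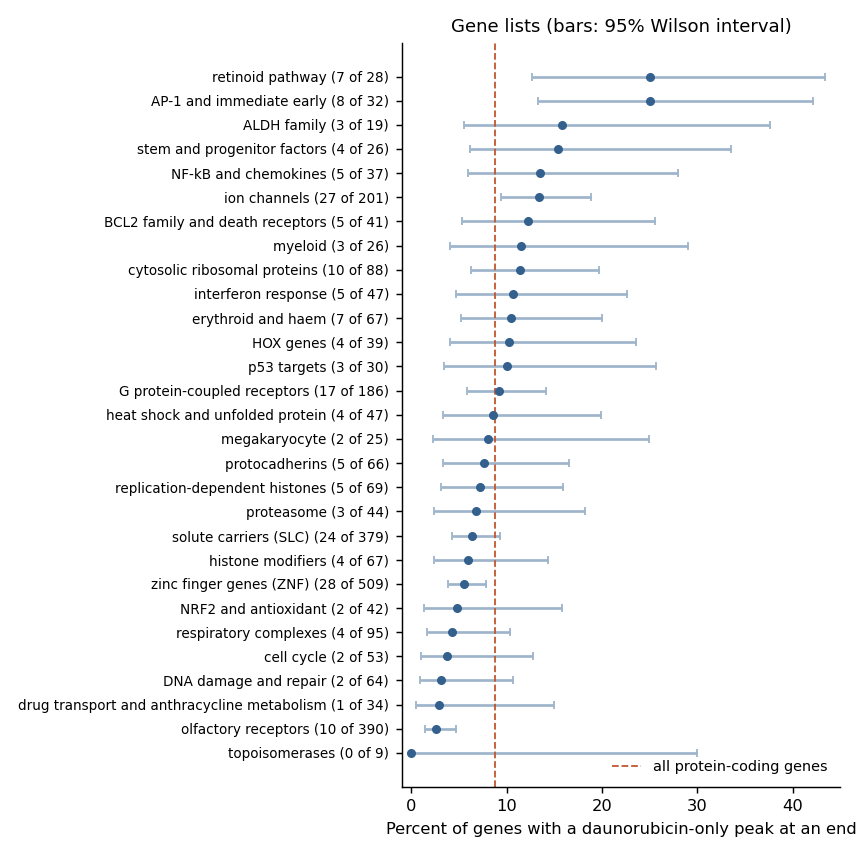
Percent of genes with a daunorubicin-only peak at an end (x axis) for 29 gene lists, with 95% Wilson intervals and the number of genes beside each name. The dashed line is the 8.76% of all protein-coding genes, and the retinoid and AP-1 lists stand highest at 25% each.

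MicroRNA genes had such a peak in 69 of 1913 (3.61%), 55 of them with no untreated peak at either end. Of all 1913 only 14.6% had an untreated peak at an end, so most miRNA genes had none anyway. Those below are well-studied ones picked after their values were seen, with the seed (bases 2 to 8) in capitals, from the RefSeq miRNA table.
hsa-miR-146b-5p: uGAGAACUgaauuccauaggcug
hsa-miR-141-3p: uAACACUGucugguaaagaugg
hsa-miR-155-5p: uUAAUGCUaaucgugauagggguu
hsa-miR-9-5p: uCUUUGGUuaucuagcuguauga
hsa-miR-194-5p: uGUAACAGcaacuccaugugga
hsa-miR-196a-5p: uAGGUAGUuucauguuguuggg

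No 2 of these 6 share a seed. MIR146B, a feedback regulator of NF-kB signalling, had a peak of score 58, 970 bp from an untreated peak. MIR141, of the epithelial miR-200 family, had one of score 51. MIR155, known from lymphocyte activation, had one of score 47 that contained the whole gene, 32200 bp from an untreated peak. MIR194-1 and MIR215 shared 1 peak of score 33, MIR9-2 had one of 22 and MIR196A1 one of 18. Whether these peaks belong to the miRNA or to a host transcript cannot be told from the lists.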

How the data were processed

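The 4 ChIP-seq peak lists came from K562 cells. The submitters' processing notes name MACS2 2.1.1, Bowtie2 2.3.4.3 and deepTools 3.2.1, with hg19 as well as hg38. Caller settings and the role of the input in calling are not stated there. For every library the authors deposited a separate list whose single value is a score per peak. How it was calculated is unknown, so scores rank peaks within a list only. Read counts were not used, so depth is unknown.

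Overlaps (1 bp), gaps and shares were computed in Python 3.11.15 and tested on simulated peaks against bedtools 2.31.1. Gene ends came from RefSeq (GRCh38.p14; hg38), and strand from its promoter table, which covered 15842 of 20050 protein-coding genes and no gene on chromosome 8. A gene's promoter was the nearest table entry within 1 kb of its annotated start. This replaced an exact match after the shares had been seen. Peaks, lists and rules were chosen with earlier results of these data known.

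Genes were named by fixed rules: the 15 highest-scoring and 10 widest peaks, the 15 strongest protein-coding starts with no untreated peak at either end, the 10 starts farthest from one, genes with 3 or more peaks, and up to 4 genes per list. Further genes of a list were named with their values known, and elsewhere the text says so beside them. Alternatives covered the distance to a gene end, gene class, gap, score, list length, input, chromosomes and promoter match. Some genes that these rules name are not reported here.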

Additional observations from a re-analysis of the deposited data

How the results depend on the processing

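No paired analysis was possible because each condition had 1 library and no result comes from a test. Of the 9 planned settings, removing input peaks and keeping chromosomes 1 to 22 and X left every main result as it was and show nothing on stability. In the other 7, 17 of 35 values stayed within 1.5 times the count or within the interval of the share, and 18 moved. Not all of the 17 were free to move. With protein-coding genes only, the share of genes without an untreated peak stayed at 51.7% by construction. Lifting the score ceiling added only 46 peaks to the 3690, so it could change little. The number of peaks was 6592 with gene ends within 2.5 kb, 1732 with protein-coding genes only, 847 at or above the median score of 41, and 1307 when the longer list was reduced to its top 38626 peaks. The share at a start was 40.3% with ends within 500 bp, 51.3% with protein-coding genes only and 34.1% with no untreated peak within 1 kb. The share with an untreated peak within 2.5 kb was 23.2% (ends within 500 bp), 28.4% (2.5 kb), 30.0% (protein-coding genes only), 7.77% (no untreated peak within 1 kb, by construction), 27.7% (median score) and 26.9% (equal lists). The share of protein-coding genes without an untreated peak at either end was 61.7% (500 bp), 35.5% (2.5 kb) and 68.0% (no untreated peak within 1 kb). The CpG-rich share was 35.1% (2.5 kb) and 56.9% (protein-coding genes only). Except where the construction is named, the cause was not tested.

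The 4 further settings were added after seeing the data. With the promoter entry at the annotated start itself, the rule first used, the CpG-rich share was 40.4% (37.3 to 43.5), TGACTCA was in 12.2% of the lncRNA promoters and GCCAAT in 34.0% of the protein-coding ones. In promoters overlapped by the daunorubicin-only peak TGACTCA was in 16.0% and GCCAAT in 22.9% (12.1 to 39.0, n = 35). The latter interval includes the 20.3% of starts with an untreated and no daunorubicin-only peak. In the planned setting with gene ends within 2.5 kb, GCCAAT fell from 32.7% to 23.8% (21.1 to 26.8). The share of the comparison class was not computed in that setting. Of the 29 gene lists, 16 kept their side of the background in these 7 settings, 1 of which (protein-coding genes only) cannot change them. For the AP-1 and retinoid lists that rests on few genes: at or above the median score 2 of 32 and 1 of 28 were left, with intervals that include the background of 2.01%. Ion channels and ribosomal proteins kept their side in 6 and the megakaryocyte list in 3. The unknown depth and the single library per condition limit every value.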
